A study of Mus musculus with 45 samples.

Results

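Mammary tumours that arose in mice exposed to 30 cGy of silicon ions were compared with mammary tumours that arose in sham-irradiated mice. The members were chosen by sample title, 10 tumours of 30 cGy hosts and 18 tumours of sham hosts, so that 28 of the 45 tumours of the series entered the comparison. In both groups the tumour grew from a fragment of Trp53-null BALB/c mammary tissue, which lacks the p53 tumour suppressor. The fragment itself was never irradiated. It was placed in the inguinal fat pad of a wild-type BALB/c female of 10 weeks whose own mammary epithelium had been taken out at 3 weeks of age. In the 30 cGy group the host was irradiated with silicon ions 3 days before transplantation, and in the sham group it was not irradiated. Transplants were watched for 600 days, and tumours were removed at 1 cm3 and frozen. Total RNA was read on 1 Affymetrix whole-transcript array per tumour, and the deposited values are log2 expression after RMA, a background correction, quantile normalization and probe summary. A difference of 1 on this scale doubles the signal. The labels name neither the donors of the fragments nor which tumours shared a host, so the p-values measure the spread between these tumours only. The groups carried no other treatment per the labels.

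Mammary epithelium has an inner luminal layer, which includes the hormone-sensing cells and the alveolar cells that make milk, and an outer basal layer of contractile myoepithelial cells. Loss of p53 in mouse mammary tissue is known to give tumours of very different kinds, from gland-like luminal tumours and keratinised squamous ones to spindle-shaped tumours that have lost epithelial junctions, and such tumours often carry gains and losses of chromosome segments. Silicon ions are heavy charged particles with dense ionization along their track, of a kind met in space. Because only the host was exposed, the design asks whether tumours from unirradiated tissue differ when they grow in an irradiated animal.

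Of the 3 markers below, Krt8 and Vim lay above the median of all values, 5.67 log2, in every tumour. Krt5 fell below it in at least 1 tumour of each group, and both keratins varied widely within each group. Krt8, a keratin of luminal cells, had a lowest, median and highest value of 10.17, 12.53 and 12.95 in 30 cGy tumours, against 7.46, 12.20 and 13.10 in sham tumours. The basal keratin Krt5 ran over 5.48, 10.28 and 12.62 in 30 cGy tumours, against 4.93, 9.58 and 13.32 in sham tumours. Vim, the gene of the mesenchymal filament protein vimentin, ran over 12.38, 12.89 and 13.29 in 30 cGy tumours, against 11.91, 12.85 and 13.52 in sham tumours, and in all 3 genes the range of the 30 cGy tumours lay within that of the sham tumours. Skeletal muscle or fat pad genes were far above the average of the 28 tumours, by over 2 log2 on either list, in 30 cGy replicate 1 and in sham replicates 3, 9, 14 and 15. The first principal component of the probe sets without a gene symbol, with 12.3% of their variance, was cut by k-means into array sets A and B. Its scores ran from 32.29 to -31.1 without a clear gap. They were 6.21 and -0.24 on either side of the cut, while neighbouring scores within set A stood further apart, at 17 and 7.98. The sets are therefore a division by score, and the labels name no such sets. Set A held 4 of 10 tumours of 30 cGy hosts (replicates 2, 4, 7 and 9), 8 of 10 sham tumours whose description code starts with 5 and 1 of 8 whose code starts with 6. The sources used here do not say what the codes stand for. The most alike pair of tumours was 30 cGy replicate 4 and sham replicate 13, with r = 0.967 over the 11472 genes kept, and the median over all pairs was 0.843. In 6 pairs the codes differ in the last letter alone, always within a group. Their median r was 0.881, against 0.835 for other pairs of the same group. The correlation within such pairs was estimated by limma at 0.311. The main fit treated all 28 tumours as independent all the same. Within set A the median of 18 of 41 gene lists had the other sign than over all tumours, within set B of 2, against sham tumours of code 5 of 8, against those of code 6 of 13, and without the tumours high in muscle or fat genes of 10.

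No gene separated the groups after correction for the number of genes. Of the 11472 genes tested with limma and Benjamini-Hochberg adjustment, 0 reached an adjusted p under 0.05 (0.0%), and the lowest adjusted p was 0.753. Without adjustment, 509 genes (4.44%) had a p under 0.05, of which 224 had a higher mean (1.95%) and 285 a lower mean (2.48%) in 30 cGy tumours. With each array centred on its own median there were 540 such genes, 313 higher and 227 lower. The mean was higher in 30 cGy tumours for 49.5% of genes and lower for 50.5%, and the median difference over all genes was -0.002. Differences beyond 1 log2 were seen for 35 genes with the higher mean in 30 cGy tumours and 23 with the lower mean. In 0 genes (0.0%) did all 10 tumours of 30 cGy hosts lie beyond every sham tumour. The spread within a group was of similar size in both, with a median SD per gene of 0.399 in 30 cGy tumours and 0.434 in sham tumours, and 63.2% of genes had the larger SD in sham tumours. The median standard error of a difference was 0.167 log2, so that the number of arrays limits what can be seen. None of the first 3 principal components, which held 28.01%, 11.3% and 7.84% of the variance, separated the groups in a two-sided permutation test (adjusted p = 0.701, 0.843 and 0.701). The first component ran between Krt5, Esrp1 and Epcam of epithelium at one end and Sema3a, Mmp3 and Ogn at the other. All results that follow are therefore descriptions of where the 30 cGy tumours lay, and no gene or list named in them passed the corrected test.

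Among the 10 genes of smallest p with a higher mean in 30 cGy tumours, Grik5 and Lpcat4 came first. Grik5 (probe set 10560945), a subunit of the kainate class of glutamate receptors, had a lowest, median and highest value of 5.84, 6.43 and 7.36 in 30 cGy tumours, against 5.47, 5.78 and 6.66 in sham tumours. Its difference was 0.64 ± 0.16 (SE, limma adjusted p = 0.753), and 9 of 10 tumours of 30 cGy hosts lay above the sham mean while 3 lay above every sham tumour. Lpcat4 (probe set 10474526), an acyltransferase that remodels membrane phospholipids, ran over 8.08, 9.08 and 9.79 in 30 cGy tumours, against 7.31, 8.38 and 9.198 in sham tumours. The difference of Lpcat4 was 0.74 ± 0.19 (limma adjusted p = 0.833), and replicate 9 was the lone 30 cGy tumour below the sham mean. Prkar2a, a regulatory subunit of protein kinase A, and Fam168a each had 6 of 10 tumours of 30 cGy hosts above the highest sham tumour, with differences of 0.41 ± 0.12 and 0.41 ± 0.12. Only 0.0262% of genes had 6 or more such tumours, and the third of these genes, the zinc finger gene Zkscan8, had a difference of 0.22 ± 0.12. The other genes of the higher side were Cd59b (0.64 ± 0.18), whose protein restrains complement, the lysosomal disease gene Cln6 (0.44 ± 0.13), the transcription factor gene Rfx7 (0.55 ± 0.17), Acad8 of valine breakdown (0.29 ± 0.09), Cnot4 (0.33 ± 0.10), a ubiquitin ligase tied to mRNA deadenylation, and the zinc finger gene Zfp457 (0.41 ± 0.13). Adamts8, a secreted metalloprotease, had 5 of 10 tumours above the highest sham tumour, as had 0.166% of genes, at a difference of 0.26 ± 0.08. Within array set A the difference of Cd59b was 0.08, of Prkar2a 0.14 and of Zkscan8 0.01, and within set B it was 1.06, 0.61 and 0.37.

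On the lower side the genes with the clearest gap were Gfra1, Snord35a, Rnf41 and Ago2. Gfra1 (probe set 10468722) encodes the co-receptor through which GDNF, a neurotrophic growth factor, signals to Ret. It ran over 5.52, 6.95 and 8.12 in 30 cGy tumours, against 7.22, 7.78 and 10.81 in sham tumours. The highest sham value stood alone, and 8 of 10 tumours of 30 cGy hosts lay below the lowest sham tumour, the exceptions being replicates 2 and 6. The difference of Gfra1 was -1.04 ± 0.30 (limma adjusted p = 0.995), and -0.87 without sham replicate 4. Rnf41 (probe set 10367337), a ubiquitin ligase known for limiting the growth factor receptor ErbB3, ran over 7.88, 8.30 and 8.55 in 30 cGy tumours, against 8.40, 8.62 and 9.01 in sham tumours. In 7 of 10 tumours of 30 cGy hosts the value lay below the lowest sham tumour for Rnf41 (-0.36 ± 0.09), for Ago2, the slicer of microRNA silencing (-0.35 ± 0.09), and for the small nucleolar RNA gene Snord35a (-0.72 ± 0.17), whereas 0.0349% of genes had 7 or more. The endosomal gene Plekhf2 had 6 such tumours (-0.33 ± 0.09), as against 0.0785% of genes with 6 or more. The remaining genes of smallest p were the Rab regulator gene Tbc1d10a (-0.44 ± 0.11), Klf10 (-0.56 ± 0.14), Nt5c (-0.43 ± 0.12), a nucleotidase gene, and 3 more small nucleolar RNA genes, Snord87 (-0.77 ± 0.18), Snord82 (-0.73 ± 0.20) and Snord49b (-0.56 ± 0.16). All 10 tumours of 30 cGy hosts lay below the sham mean for Snord87, Tbc1d10a, Rnf41, Plekhf2, Snord82 and Nt5c. The genes were picked on these same tumours, so the counts describe them and add no support. Galnt6, which starts mucin-type sugar chains, ran over 4.75, 5.34 and 5.85 in 30 cGy tumours, against 4.86, 6.36 and 9.01 in sham tumours (-1.19 ± 0.37), and all 10 tumours of 30 cGy hosts lay below its sham mean. Its 30 cGy median was under the median of all values, 5.67, so this count rests largely on dim values.

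**Figure D1:**
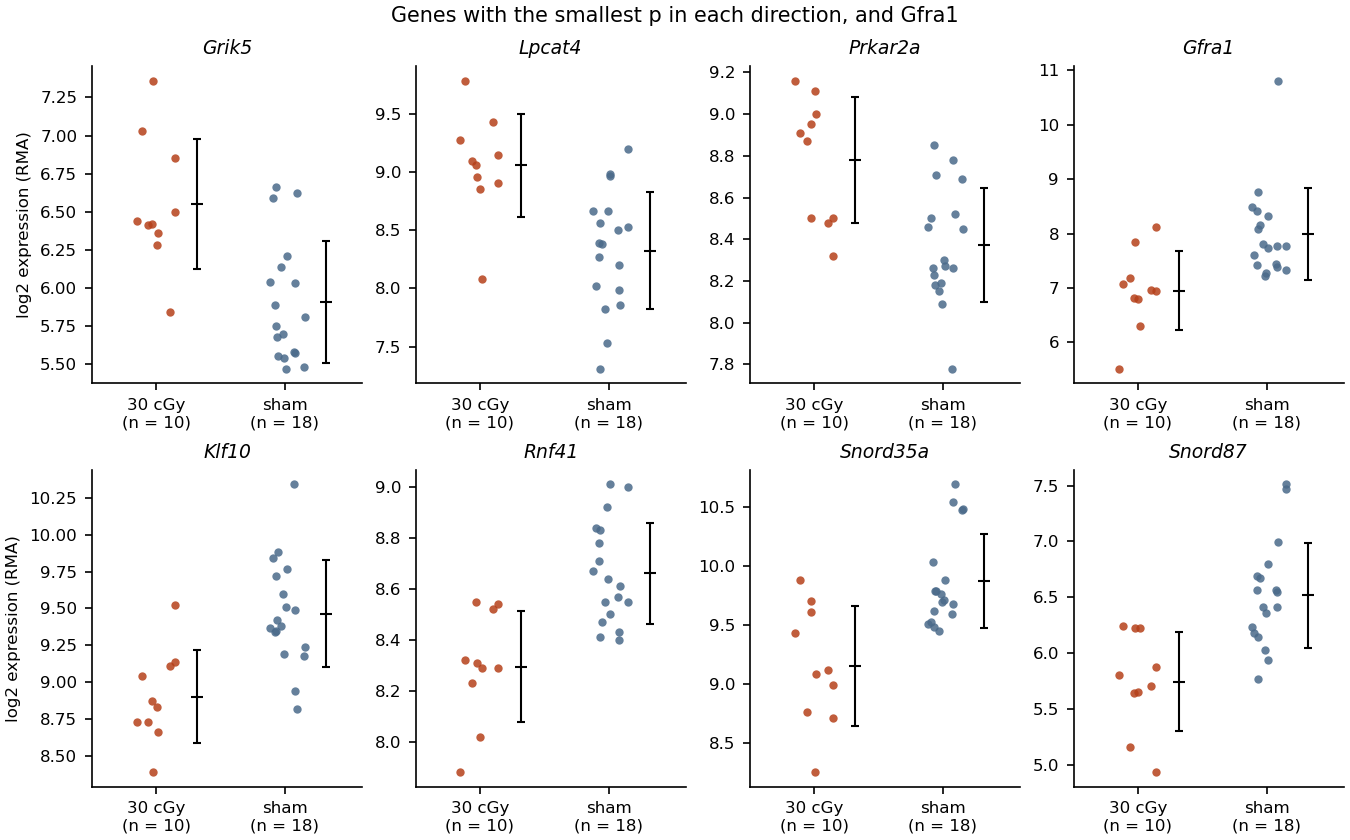
Log2 expression of 8 genes in each tumour, 30 cGy hosts (10 points) left of sham hosts (18 points), with the group mean and SD as a bar beside the points and a y axis of its own for each gene. The groups overlap in every panel; for Gfra1, 8 of 10 points of 30 cGy hosts lie below the lowest sham point, and for Rnf41 and Snord35a 7 of 10.

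The largest differences in the whole comparison belonged to the milk protein genes, which reached high values in both groups and had the higher median in 30 cGy tumours. Caseins are the main proteins of milk, made by alveolar cells under prolactin through the transcription factor STAT5, and in mouse their genes lie together on chromosome 5. The starts of 3 of them are shown, because STAT5 is known to bind sites of the form TTCNNNGAA. Each line gives 300 bases from 250 before to 50 after the gene's start, from RefSeq on build GRCm38.p6, and capitals mark each match to that form on either strand. The windows are chr5:87665958-87666257 on the plus strand for Csn1s1, chr5:87774200-87774499 on the plus strand for Csn1s2a and chr5:87699376-87699675 on the minus strand for Csn2.
Csn1s1: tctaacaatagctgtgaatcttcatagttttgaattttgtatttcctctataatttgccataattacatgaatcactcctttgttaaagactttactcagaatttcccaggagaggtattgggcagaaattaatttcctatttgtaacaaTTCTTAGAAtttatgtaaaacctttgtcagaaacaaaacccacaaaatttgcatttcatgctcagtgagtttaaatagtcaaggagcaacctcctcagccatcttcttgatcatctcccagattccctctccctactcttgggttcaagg
Csn1s2a: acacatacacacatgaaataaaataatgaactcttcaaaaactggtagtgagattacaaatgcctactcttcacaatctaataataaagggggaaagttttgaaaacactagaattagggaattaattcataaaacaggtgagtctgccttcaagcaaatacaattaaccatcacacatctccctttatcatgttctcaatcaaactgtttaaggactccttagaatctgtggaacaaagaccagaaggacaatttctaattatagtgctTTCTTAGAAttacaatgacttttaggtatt
Csn2: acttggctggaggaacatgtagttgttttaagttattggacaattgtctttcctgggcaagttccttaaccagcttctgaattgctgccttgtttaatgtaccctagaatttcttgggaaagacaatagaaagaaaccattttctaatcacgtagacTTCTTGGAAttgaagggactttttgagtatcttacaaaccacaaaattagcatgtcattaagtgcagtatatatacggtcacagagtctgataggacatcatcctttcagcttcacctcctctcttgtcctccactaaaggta
Counted from the gene's start, the match begins at position -100 in Csn1s1, at -93 in Csn2 and at 20 in Csn1s2a. Of 32851 promoter windows of this length, 8.3% hold the form. The windows of the milk genes Wap and Lalba hold none of these letters, and a match is a description of the letters and shows no binding.

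Csn1s2a (probe set 10522845), an alpha-S2 casein gene, had a lowest, median and highest value of 4.73, 9.92 and 12.86 in 30 cGy tumours, against 3.89, 5.22 and 12.66 in sham tumours. The groups overlapped over almost the whole range, but 9 of 10 tumours of 30 cGy hosts lay above the sham mean. The difference was 3.19 ± 1.06 (limma adjusted p = 0.995, n = 10 and 18), a 9.12-fold ratio of geometric means and the largest of all 11472 genes. Csn2, the beta-casein gene, ran over 8.01, 11.04 and 13.30 in 30 cGy tumours, against 5.79, 7.99 and 13.22 in sham tumours (2.22 ± 0.88). Csn3, the kappa-casein gene, ran over 7.40, 10.88 and 12.28 in 30 cGy tumours, against 4.12, 9.18 and 12.39 in sham tumours (1.87 ± 0.79). Csn1s1, the alpha-S1 casein gene, ran over 5.71, 11.21 and 12.89 in 30 cGy tumours, against 3.50, 8.67 and 12.76 in sham tumours (1.98 ± 1.04). The lowest 30 cGy tumour was replicate 9 for Csn1s1, Csn1s2a and Csn2 and replicate 4 for Csn3. The 4 casein genes thus showed the same picture, overlapping ranges with the median higher in the 30 cGy group. The lowest tumour was higher there too, but the lowest of 18 tumours tends to lie below the lowest of 10 by group size alone. Over the 28 tumours, the genes most like Csn2 were Csn1s2a (r = 0.92), Glycam1 (0.84), Csn1s1 (0.83), Cel (0.74) and Wap (0.72), given as a description of tumours that share one array platform.

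Of the 16 genes kept from a list of 21 milk and alveolar genes, 15 had the higher mean in 30 cGy tumours, with a median difference of 1.04, against 49.5% and -0.002 over all genes. At an unadjusted p under 0.05, 3 of the 16 were higher, Csn1s2a, Csn2 and Csn3, and 0 lower, against 1.95% and 2.48% of all genes. The whey protein gene Wap had a difference of 0.93 ± 0.85, and 0.43 without 30 cGy replicate 7. The alpha-lactalbumin gene Lalba differed by 1.15, and Elf5, the transcription factor gene of alveolar cells, by 0.94 ± 0.77. Xdh, of milk fat globule formation, was the member with a lower mean (-0.26). The list's score, its members' mean relative to the 28 tumours, ran from -1.48 to 3.07 with a median of 0.73 in 30 cGy tumours, against -2.71 to 2.24 with a median of -0.52 in sham tumours, and 8 of 10 tumours of 30 cGy hosts lay above the sham median. In array set A the median difference of the list was 0.36 with 11 of 16 genes higher, and in set B it was 1.46 with 15 of 16. Within set A the difference of Csn1s2a was 1.54, of Csn2 0.86 and of Csn3 0.82, and that of Csn1s1 turned to -0.32. Within set B these 4 genes differed by 4.53, 3.38, 2.69 and 3.78. Without the 5 tumours high in muscle or fat genes the list's median was 1.12, and 15 of 16 genes were again higher by mean. In a bulk tumour, more milk-making cells and more milk RNA per cell cannot be told apart.

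**Figure D2:**
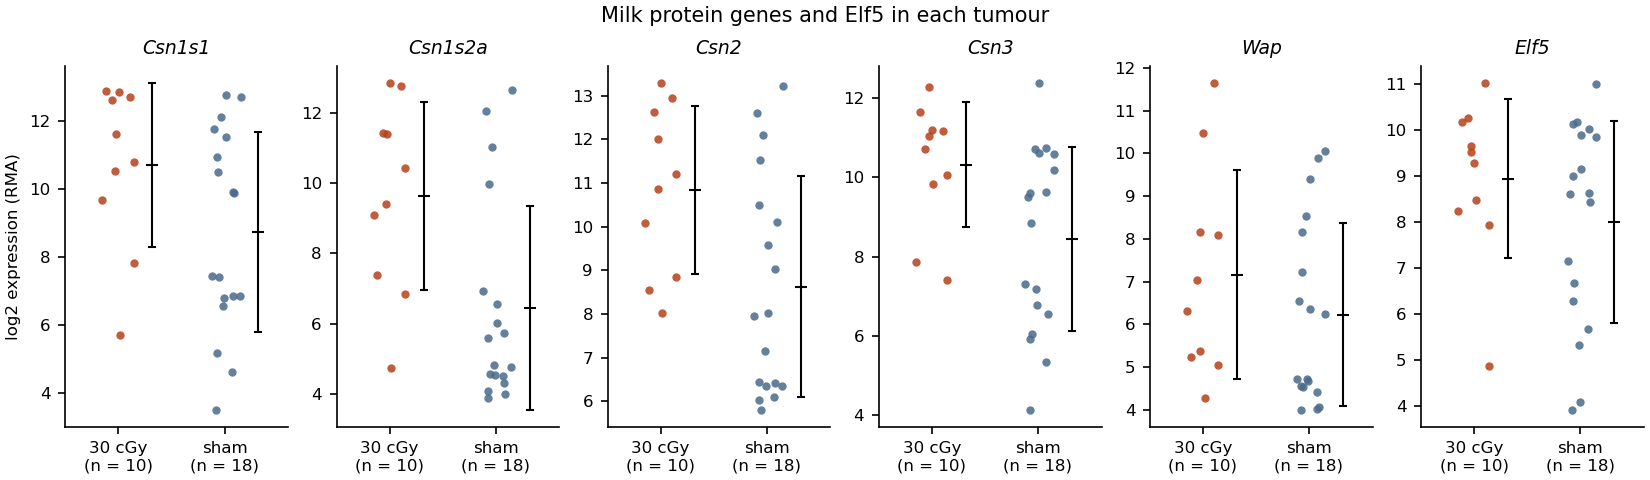
Log2 expression of 4 casein genes, Wap and Elf5 in each tumour, 30 cGy hosts (10 points) left of sham hosts (18 points), with the group mean and SD as a bar. For Csn1s2a the median is 9.92 in 30 cGy tumours and 5.22 in sham tumours, and both groups reach above 12.

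Luminal and junction genes leaned the same way with smaller differences. All 18 genes kept from the luminal epithelium list had the higher mean in 30 cGy tumours, with a median difference of 0.36, and 0 of them passed an unadjusted p under 0.05 in either direction. By score, 7 of 10 tumours of 30 cGy hosts lay above the sham median. Gata3, a master regulator of luminal cells, ran over 8.58, 10.03 and 11.02 in 30 cGy tumours, against 6.54, 9.46 and 10.95 in sham tumours (0.71 ± 0.43). Krt19, a luminal keratin gene, had a difference of 1.19 ± 0.81, the pioneer factor gene Foxa1 0.93 ± 0.69 and the surface marker gene Epcam 0.74 ± 0.77. Without 1 tumour, Foxa1 differed by 0.61 (30 cGy replicate 6 left out), and Epcam by 0.455 (sham replicate 10) or 1.22 (30 cGy replicate 4). The groups overlapped widely in each of these genes. Of 22 junction genes 18 were higher by mean, with a median of 0.30. The tight junction gene Cldn8 was the 1 member at an unadjusted p under 0.05, against 1.95% of all genes on the higher side. By score, though, only 5 of 10 tumours of 30 cGy hosts lay above the sham median, with medians of 0.53 in 30 cGy tumours and 0.45 in sham tumours. Cldn8 ran over 5.18, 8.57 and 9.41 in 30 cGy tumours, against 4.65, 7.04 and 9.13 in sham tumours (1.22 ± 0.58). The E-cadherin gene Cdh1 differed by 0.48 ± 0.63, by 0.26 without sham replicate 16 and by 0.90 without 30 cGy replicate 4. Both list directions turned within array set A, where 5 of 18 luminal genes were higher (median -0.40) and 3 of 22 junction genes (median -0.47), while in set B the counts were 18 of 18 (0.94) and 20 of 22 (0.92). Set A holds 30 cGy replicate 4, the tumour with the lowest luminal and junction scores of the group, and 3 other 30 cGy tumours. Among its sham tumours is replicate 5, with a junction score of -2.19. Set B holds sham replicates 10, 13 and 16, the lowest sham tumours on both lists. Their luminal scores were -2.54, -2.20 and -2.62, and their junction scores -2.69, -2.32 and -2.27. What part this placing has in the counts by set was not tested. Of 10 hormone receptor and oestrogen target genes 8 were higher by mean (median 0.17, and -0.02 within array set A), among them the progesterone receptor gene Pgr (0.95 ± 0.54) and Cited4 (0.95 ± 0.68), while the oestrogen receptor gene Esr1 differed by -0.15. Of 20 basal and myoepithelial genes 10 were higher by mean, with 4 of 20 in array set A (median -0.57) and 12 of 20 in set B (0.30). Of 20 mesenchymal and claudin-low genes 10 were higher by mean as well, with 16 of 20 in set A (median 0.18) and 4 of 20 in set B (-0.34). In that list Ncam1, a cell adhesion gene that nerve and Schwann cells also use, had an unadjusted p under 0.05 (0.68 ± 0.31).

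Genes of fatty acid and cholesterol synthesis, which supply membranes and milk fat, had small differences of a single sign over all 28 tumours. All 22 genes kept had the higher mean in 30 cGy tumours, with a median of 0.20. Elovl6, which lengthens fatty acids, was the 1 member at an unadjusted p under 0.05, against 1.95% of all genes on the higher side. Elovl6 ran over 7.86, 9.57 and 10.51 in 30 cGy tumours, against 8.04, 8.90 and 10.19 in sham tumours (0.54 ± 0.23). The desaturase gene Scd1 differed by 0.78, the fatty acid synthase gene Fasn by 0.41 and the regulator gene Srebf1 by 0.30. The 30 cGy replicate 1, rich in fat genes, scored highest on the list together with replicate 3, and without the tumours high in muscle or fat genes 21 of 22 remained on the higher side with a median of 0.26. Against sham tumours of code 6 alone, 14 of 22 were higher (median 0.10), and against those of code 5 alone 22 of 22 (median 0.29). Within array set A 15 of 22 were higher (median 0.07), and within set B 17 of 22 (median 0.27).

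Inflammatory genes leaned the other way. All 16 inflammatory cytokine and prostaglandin genes kept had the lower mean in 30 cGy tumours, with a median of -0.58, against 50.5% and -0.002 over all genes. At an unadjusted p under 0.05, 3 of the 16 were lower, against 2.48% of all genes, and 3 of 10 tumours of 30 cGy hosts scored above the sham median. Tnf, the gene of tumour necrosis factor, ran over 5.74, 6.84 and 7.65 in 30 cGy tumours, against 5.90, 7.37 and 9.18 in sham tumours (-0.63 ± 0.28). Tnfaip3, a feedback inhibitor that NF-kB signalling induces, ran over 6.31, 7.10 and 8.62 in 30 cGy tumours, against 6.89, 7.81 and 9.23 in sham tumours (-0.63 ± 0.26). Cxcl1, a chemokine gene that attracts neutrophils, ran over 5.42, 6.72 and 7.87 in 30 cGy tumours, against 5.83, 7.34 and 10.89 in sham tumours (-0.90 ± 0.44). The start of Cxcl1, at chr5:90890995-90891294 on the plus strand of GRCm38.p6 from RefSeq, is shown because NF-kB is known to bind sites that read GGG, any 2 bases, then TTTCC, which capitals mark on either strand.
Cxcl1: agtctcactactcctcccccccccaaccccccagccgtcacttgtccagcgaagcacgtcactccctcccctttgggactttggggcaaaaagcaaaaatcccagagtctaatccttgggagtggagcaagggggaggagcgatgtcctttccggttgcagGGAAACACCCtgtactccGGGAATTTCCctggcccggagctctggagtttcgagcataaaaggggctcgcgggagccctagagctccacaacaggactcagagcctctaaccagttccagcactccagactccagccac
It holds 2 matches, both before the start, and 1.63% of all 32851 windows hold at least 1. Of the windows of Tnfaip3, 1 of 2 holds a match, and the window of Tnf holds none of these letters. The neighbouring chemokine genes Cxcl5 and Cxcl2 differed by -1.22 and -1.20, Ccl2, which attracts monocytes, by -0.72, and Il1b by -0.63. The score of the list ran from -0.97 to 1.02 in 30 cGy tumours, against -0.71 to 2.32 in sham tumours, and its highest 30 cGy tumour, replicate 4, stood apart from the other 9. In sham tumours the top of the range belonged to replicates 3 and 7. The median was -0.26 in array set A, where 6 of 16 genes had the higher mean, and -0.73 in set B, where 0 had.

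Neutrophil and mast cell genes were also mostly lower by mean. S100a8 and S100a9 encode the subunits of calprotectin, an abundant protein of neutrophils. S100a8 ran over 4.33, 5.75 and 7.50 in 30 cGy tumours, against 5.01, 6.74 and 10.98 in sham tumours (-1.32 ± 0.53). In it 4 of 10 tumours of 30 cGy hosts lay below the lowest sham tumour. Those 4 values and the lowest sham value were all under the median of all values, 5.67, so this count rests on dim values. S100a9 ran over 5.01, 5.90 and 8.18 in 30 cGy tumours, against 5.29, 7.15 and 11.19 in sham tumours (-1.25 ± 0.54). Against sham tumours of code 6 alone the differences were -0.70 for S100a8 and -0.80 for S100a9. Keratinocytes are also known to make both proteins, and the squamous list, of which 8 genes were kept, had 1 higher by mean and Sbsn, a gene of cornified epithelium, at -1.19 ± 0.50. On the squamous score, though, 6 of 10 tumours of 30 cGy hosts lay above the sham median, with medians of -0.12 and -0.22. Sham replicates 3, 8 and 17 scored highest, at 3.67, 2.73 and 1.99. Of 13 neutrophil genes 2 were higher by mean, Lcn2 and Ltf, which mammary epithelium also makes, and the median was -0.63. Of 5 mast cell genes 1 was higher by mean, the median was -0.68, and the mast cell protease gene Cpa3 ran over 3.97, 5.46 and 7.30 in 30 cGy tumours, against 3.92, 5.71 and 10.98 in sham tumours (-1.12 ± 0.71, and -0.45 against sham tumours of code 6). By score, 3 of 10 tumours of 30 cGy hosts lay above the sham median for neutrophil genes and 5 of 10 for mast cell genes. Hdc, which makes histamine, differed by -0.93 ± 0.40. Macrophage genes were mixed, with 9 of 22 higher and a median of -0.04, and the count was 1 of 22 against sham tumours of code 5 and 20 of 22 against those of code 6. It was 20 of 22 in array set A and 3 of 22 in set B. In that list Cd163, a scavenger receptor gene of a macrophage subset, ran over 4.50, 5.47 and 6.57 in 30 cGy tumours, against 4.59, 6.25 and 10.04 in sham tumours (-1.22 ± 0.50). The 30 cGy medians of Cd163 and Cpa3 were dim as well, under 5.67. Of 11 T cell genes 5 were higher by mean, with 10 of 11 in array set A (median 0.18) and 1 of 11 in set B (-0.18), and Cd3e had medians of 6.80 in 30 cGy tumours and 6.68 in sham tumours. The pan-leukocyte gene Ptprc had medians of 9.08 in 30 cGy tumours and 9.30 in sham tumours. Of 22 type I interferon genes 4 were higher by mean (median -0.15), and that direction turned to a median of 0.02 without the tumours high in muscle or fat genes.

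Immediate early genes, which cells switch on within minutes of a stimulus, had 18 of 20 members lower by mean and a median of -0.26, against 50.5% and -0.002 over all genes. Klf10 (probe set 10428302), a zinc finger gene induced early by TGF-beta, ran over 8.39, 8.85 and 9.52 in 30 cGy tumours, against 8.82, 9.40 and 10.34 in sham tumours (-0.56 ± 0.14). Atf3, a stress-induced transcription factor gene, differed by -0.61 ± 0.28 and the epithelial factor gene Klf4 by -0.68 ± 0.31. These 3 of 20 were the members at an unadjusted p under 0.05, against 2.48% of all genes on the lower side. Fos and Jun, the subunits of the AP-1 factor, differed by -0.24 and -0.19. In array set B 8 of 20 were higher by mean and the median was -0.11, and in set A 3 of 20 and -0.36. Among 22 genes known as p53 targets in cells that have p53, 7 were higher by mean (median -0.07). The kinase gene Plk3 (-0.64 ± 0.21) and Mdm2, the ubiquitin ligase gene of p53 (-0.27 ± 0.11), had an unadjusted p under 0.05. These were 2 of 22, against 2.48% of all genes on the lower side. Cdkn1a, the gene of the p21 cell cycle inhibitor, differed by -0.37 ± 0.28, and by -0.24 without 30 cGy replicate 7. Of 19 TGF-beta genes 7 were higher by mean (median -0.05, turning to 0.13 in array set A, 0.016 against sham tumours of code 6 and 0.050 without the tumours high in muscle or fat genes). Besides Klf10, Id1, a BMP-responsive inhibitor gene, was lower by mean (-0.55 ± 0.23) and the ligand gene Tgfb3 was higher (0.60 ± 0.25). The ligand gene Tgfb1 had medians of 9.91 in 30 cGy tumours and 10.05 in sham tumours and differed by -0.19.

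Small nucleolar RNA genes made up 4 of the 10 lower genes of smallest p, and the class was then counted as a whole. These short RNAs guide chemical marks on ribosomal RNA and lie mostly in introns of host genes. Of 49 Snord and Snora genes kept, 46 had the lower mean in 30 cGy tumours, with a median of -0.27, against 50.5% and -0.002 over all genes. At an unadjusted p under 0.05, 16 were lower and 0 higher, against 2.48% and 1.95% of all genes. Snord87 (probe set 10353034) ran over 4.93, 5.75 and 6.24 in 30 cGy tumours, against 5.77, 6.48 and 7.51 in sham tumours. Snord35a (probe set 10563108) ran over 8.25, 9.10 and 9.88 in 30 cGy tumours, against 9.45, 9.73 and 10.69 in sham tumours. The class score lay between -0.55 and 0.07 in 30 cGy tumours, against -0.60 and 0.75 in sham tumours, with medians of -0.17 and 0.17. The count of lower genes was 42 in array set A and 42 in set B, 43 against sham tumours of code 5 and 45 against those of code 6, so that this direction, unlike the luminal one, was the same in every subset tried. Of a list of 10 host genes only 3 were kept, and 2 of these were higher by mean (median 0.008). They were not matched to the 49 genes, so expression of the hosts of this class was not assessed. Of the 22 ribosomal protein genes 8 were higher by mean (median -0.046), with 5 of 22 in array set A and 13 of 22 in set B. The class was picked after its p-values were seen, so the count is a description.

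Proliferation and repair genes had medians near 0, and array sets A and B went opposite ways. Of 24 cell cycle genes 11 were higher by mean, with 17 of 24 in set A (median 0.18) and 7 of 24 in set B (-0.089). The proliferation marker gene Mki67 ran over 8.98, 10.29 and 11.47 in 30 cGy tumours, against 9.57, 9.95 and 10.55 in sham tumours (0.32 ± 0.18, and 0.19 without 30 cGy replicate 9). Birc5, an inhibitor of cell death made in mitosis, differed by -0.35 ± 0.21, and by -0.23 without 30 cGy replicate 1. DNA damage and repair genes had 15 of 22 higher by mean and a median of 0.09, with 19 of 22 in set A (0.27) and 8 of 22 in set B (-0.087). In the Notch list 4 of 20 were higher by mean (median -0.11, turning to 0.09 against sham tumours of code 5). In it Maml2, a Notch co-activator gene, differed by 0.61 ± 0.22, and by 0.47 without 30 cGy replicate 7. The Wnt list had 16 of 22 higher (median 0.15), with 6 of 22 in array set A (-0.17), and Hedgehog had 5 of 7, with the inhibitor gene Sufu at 0.25 ± 0.12. Endothelial genes had 3 of 19 higher and a median of -0.28, which turned to 0.05 against sham tumours of code 5. Skeletal muscle genes had 2 of 12 higher and a median of -0.27, which turned to 0.02 without the tumours high in muscle or fat genes. Fibroblast and matrix genes had 9 of 25 higher and a median of -0.07, with 19 of 25 and 0.11 against sham tumours of code 6, and the collagen gene Col1a1 had medians of 11.23 in 30 cGy tumours and 11.29 in sham tumours.

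**Figure D3:**
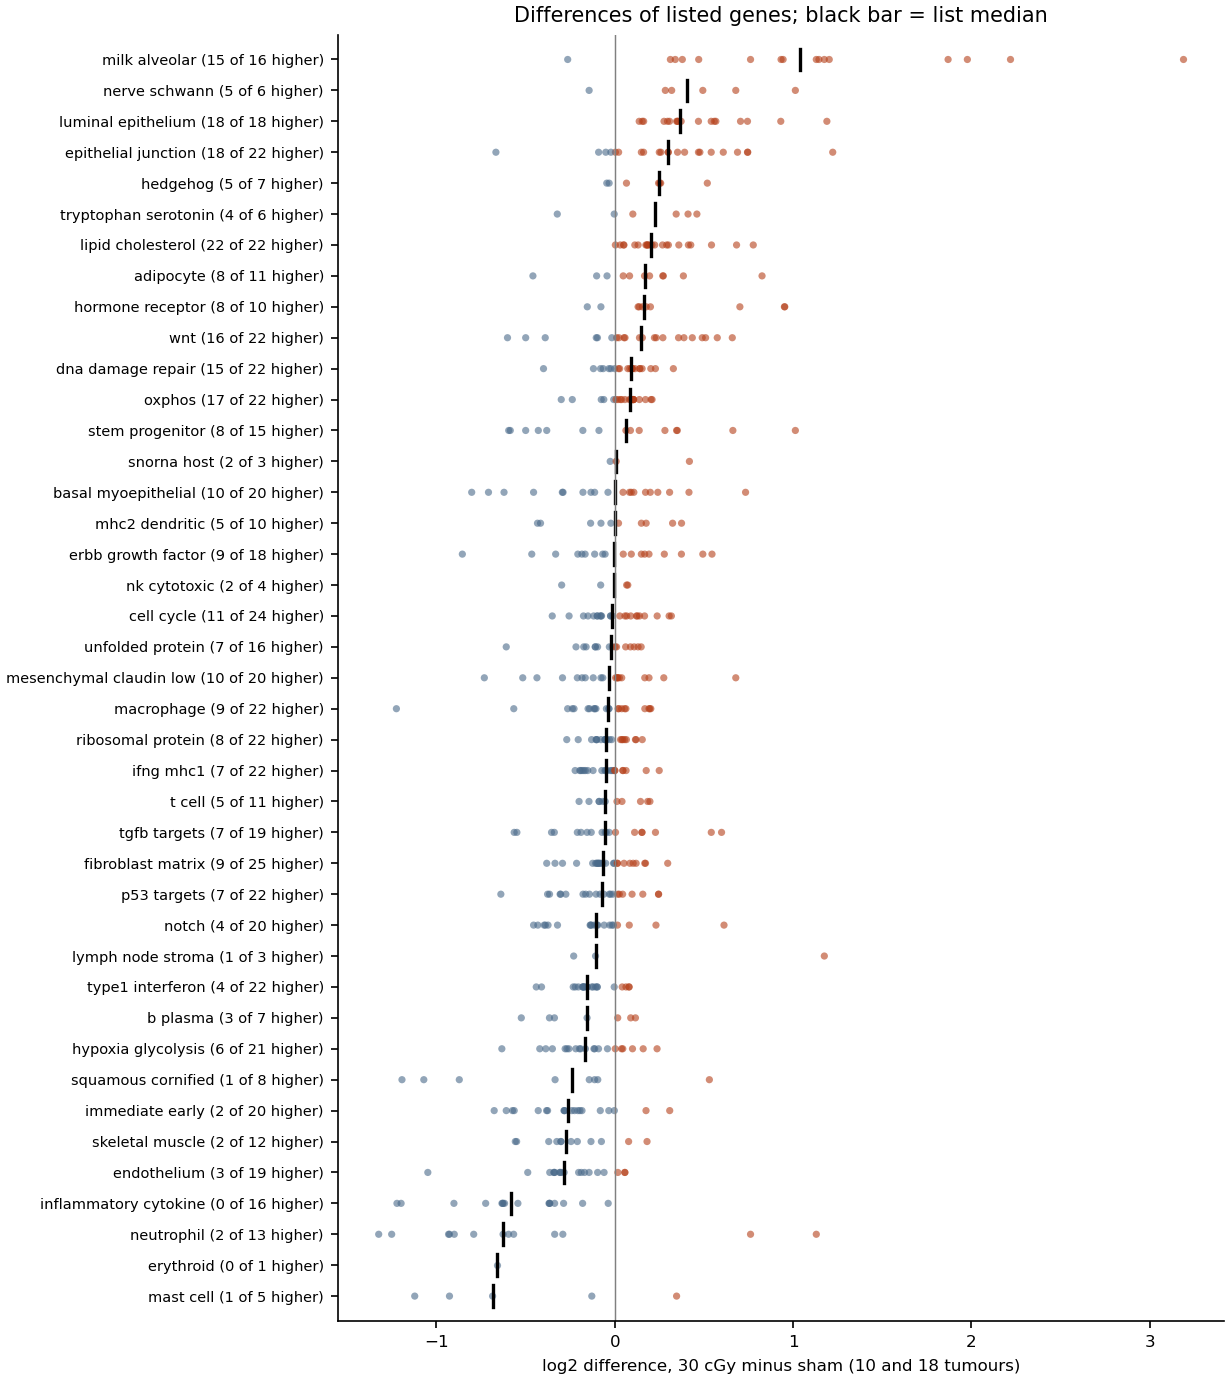
Log2 difference, 30 cGy minus sham, of each gene kept in 41 lists, 1 point per gene, with the list median as a black bar and the count of members with the higher mean beside the name. Milk and alveolar genes reach furthest to the right (median 1.04), and inflammatory (median -0.58), neutrophil (-0.63) and mast cell genes (-0.68) lie to the left; no gene passed the corrected test.

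Taken tumour by tumour, the 10 tumours of 30 cGy hosts were of several kinds. Replicate 4 was low in epithelial genes, with a luminal score of -2.02 and a junction score of -2.29, Epcam at 6.16 and Cdh1 at 6.54, and it scored 1.11 on the macrophage list. It resembled sham replicates 5, 10, 13 and 16, which also had junction scores under -2. Replicate 1 carried muscle (5.62) and fat (4.12) together with a milk score of 2.19 and a low cell cycle score of -1.20. Replicate 7 had the highest milk score of all 28 tumours, 3.07, and made Wap at 11.66 and Csn2 at 12.95. Replicates 5 and 10 were high in basal genes (1.67 and 1.61), with replicate 5 also high in interferon genes (1.24) and replicate 10 low in them (-1.64). Replicate 9 had a luminal score of 1.02 beside a milk score of -0.84, and the lowest Csn1s1 of the group. Squamous scores stayed between -1.31 and 0.58 in 30 cGy tumours, against -1.52 and 3.67 in sham tumours.

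**Figure D4:**
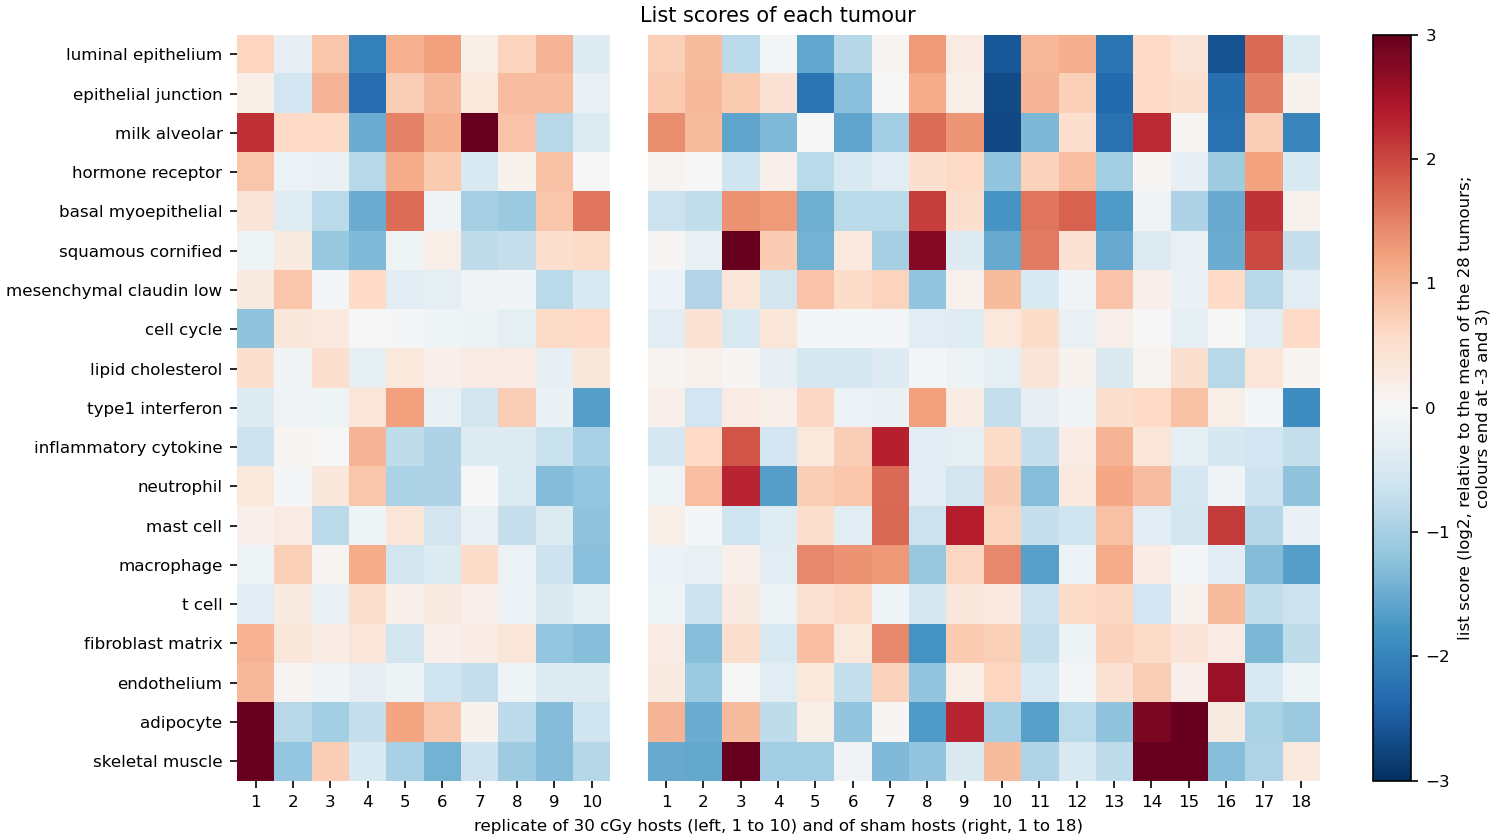
List scores of each tumour, the mean of the list's genes relative to the mean of the 28 tumours in log2, for 10 tumours of 30 cGy hosts (left) and 18 of sham hosts (right). Replicate 4 of the 30 cGy hosts is blue for luminal and junction genes (-2.02 and -2.29), and replicate 1 is red for muscle and fat genes (5.62 and 4.12).

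Each tumour also had genes that stood above every sham tumour. Counting genes over 2 log2 above the highest sham tumour gave 0 to 9 per 30 cGy tumour with a median of 2, and the same count for each sham tumour against the other 17 gave 0 to 59 with a median of 2. No gene lay over 2 log2 below the lowest sham tumour in any 30 cGy tumour. In replicate 7 the furthest were Muc4, a membrane mucin gene, at 10.48 (2.70 above the highest sham tumour), the fatty acid binding gene Fabp3 at 11.48 (2.59 above) and the cytochrome gene Cyp2f2 at 12.19 (2.03 above). In replicate 5 they were Reck, an inhibitor of matrix proteases, at 10.56 (1.62 above), the monoamine oxidase gene Maob at 9.39 (1.61 above) and the heparanase relative Hpse2 at 10.68 (1.52 above). Replicate 1 had Pnpla3, a lipase gene of fat storage, at 9.80 (1.88 above) and the lipoxygenase gene Alox15 at 10.10 (1.68 above). In replicates 2, 3, 4, 6, 8, 9 and 10 at least 3 of the 4 furthest genes shared a chromosome. They were Alkbh8, Gucy1a2 and Cwf19l2 of chromosome 9 in replicate 2, and Pot1a, Cttnbp2, 2610001J05Rik and Tmem168 of chromosome 6 in replicate 3. In replicate 6 Sspn stood 3.05 above the highest sham tumour and Rassf8 2.52, both on chromosome 6, and in replicate 10 Cep57l1 stood 3.48 above and Zbtb24 3.18, both on chromosome 10.

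Runs of neighbouring genes that were high together were then sought in all 28 tumours. A run was a stretch in which the median of 10 successive measured genes lay over 1.5 log2 above the median of the 28 tumours, trimmed to its outermost genes over 1 log2, and the rule was set after the neighbours above had been seen. There were 14 runs in 9 of 10 tumours of 30 cGy hosts, none in replicate 1, and 37 runs in 17 of 18 sham tumours. Some of the sham runs covered families of related genes that lie together, such as the keratins and the Cxcl chemokines. Copy number was not measured, and its part in the runs was not tested.

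The longest run, 63 genes of chromosome 6 from Pon2 to Copg2 in replicate 8, held Met, the receptor tyrosine kinase gene for hepatocyte growth factor, at a median of 2.12 above the usual level with 48 of 63 genes over 1 log2 above it. Met stood at 12.71 in replicate 8 and at 12.47 in replicate 3, whose run of 19 genes from Tmem168 to Aass had a median of 2.32, against 6.72 to 11.13 in the other 8 tumours of 30 cGy hosts. Runs with Met were seen in 2 of 10 tumours of 30 cGy hosts and in 2 of 18 sham tumours, replicates 1 and 14. In replicate 4 part of the same stretch, 9 genes from Cttnbp2 to Cadps2, was instead low, at a median of -1.58. Replicate 6 had a run of 36 genes near the other end of chromosome 6, from Slco1a5 to Resf1, at a median of 1.602, with Bcat1 of amino acid breakdown and the clock gene Bhlhe41 in it. Sham replicate 3 had a run within this stretch, from Rassf8 to Klhl42 (13 genes, median 1.705).

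Replicates 2, 4 and 7 had runs at the start of chromosome 9, of 20, 20 and 45 genes, with medians of 2.12, 2.35 and 1.83. They held the matrix metalloprotease genes Mmp13, Mmp12, Mmp3 and Mmp10, the cell death inhibitor genes Birc2 and Birc3 and Yap1, an effector of the Hippo pathway. Yap1 stood at 11.23, 12.70 and 12.20 in these 3 tumours, against 9.19 to 10.10 in the other 7 tumours of 30 cGy hosts. Birc2 stood at 9.82, 11.10 and 11.02 in the same 3 tumours. Runs with Yap1 were seen in 3 of 10 tumours of 30 cGy hosts and in 4 of 18 sham tumours, replicates 5, 6, 10 and 13. The runs of replicates 4 and 7 also took in Pgr, yet Pgr stood at 4.98 and 5.33 in these 2 tumours. That of replicate 7 took in Maml2 as well. Replicate 5 had 10 genes of chromosome 8 from Mcf2l to Gas6 with Cul4a and Lamp1 (median 1.51), a stretch that was also high in sham replicates 8, 12, 15 and 17 by the place of Cul4a. Replicate 9 had 9 genes of chromosome X from Rps6ka3 to Rbbp7 (median 1.94), with no run on that chromosome in sham tumours. Replicate 10 had 4 runs. Those on chromosome 8 went from Fnta to Eif4ebp1 (10 genes, median 1.72) and from Neil3 to Hmgb2 (9 genes, median 2.52). Those on chromosome 10 went from Cenpw to Rnf217 (8 genes, median 1.92) and from Rpf2 to Hace1 (33 genes, median 1.81). The stretch from Neil3 to Hmgb2 also lay within a run of sham replicate 4, and the genes from Hey2 to Rnf217 within a run of sham replicate 11. The other runs of replicate 10 shared no gene with a sham run. Fgfr1, a growth factor receptor gene also on chromosome 8, ran over 10.58, 11.31 and 12.71 in 30 cGy tumours, against 9.53, 11.03 and 11.89 in sham tumours (0.55 ± 0.23, and 0.41 without replicate 10, its highest tumour). Some 30 cGy tumours had description codes that differ in the last letter alone, and their runs differed. These lay on chromosome 8 in replicate 5 and chromosome 6 in replicate 6, and on chromosome 9 in replicate 7 and chromosome 6 in replicate 8. Sham replicates 5 and 6, whose codes also differ in the last letter alone, instead both had a run with Yap1 on chromosome 9. In the other sham pairs of this kind, replicates 8 and 9, 11 and 12, and 13 and 14, no run was shared.

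**Figure D5:**
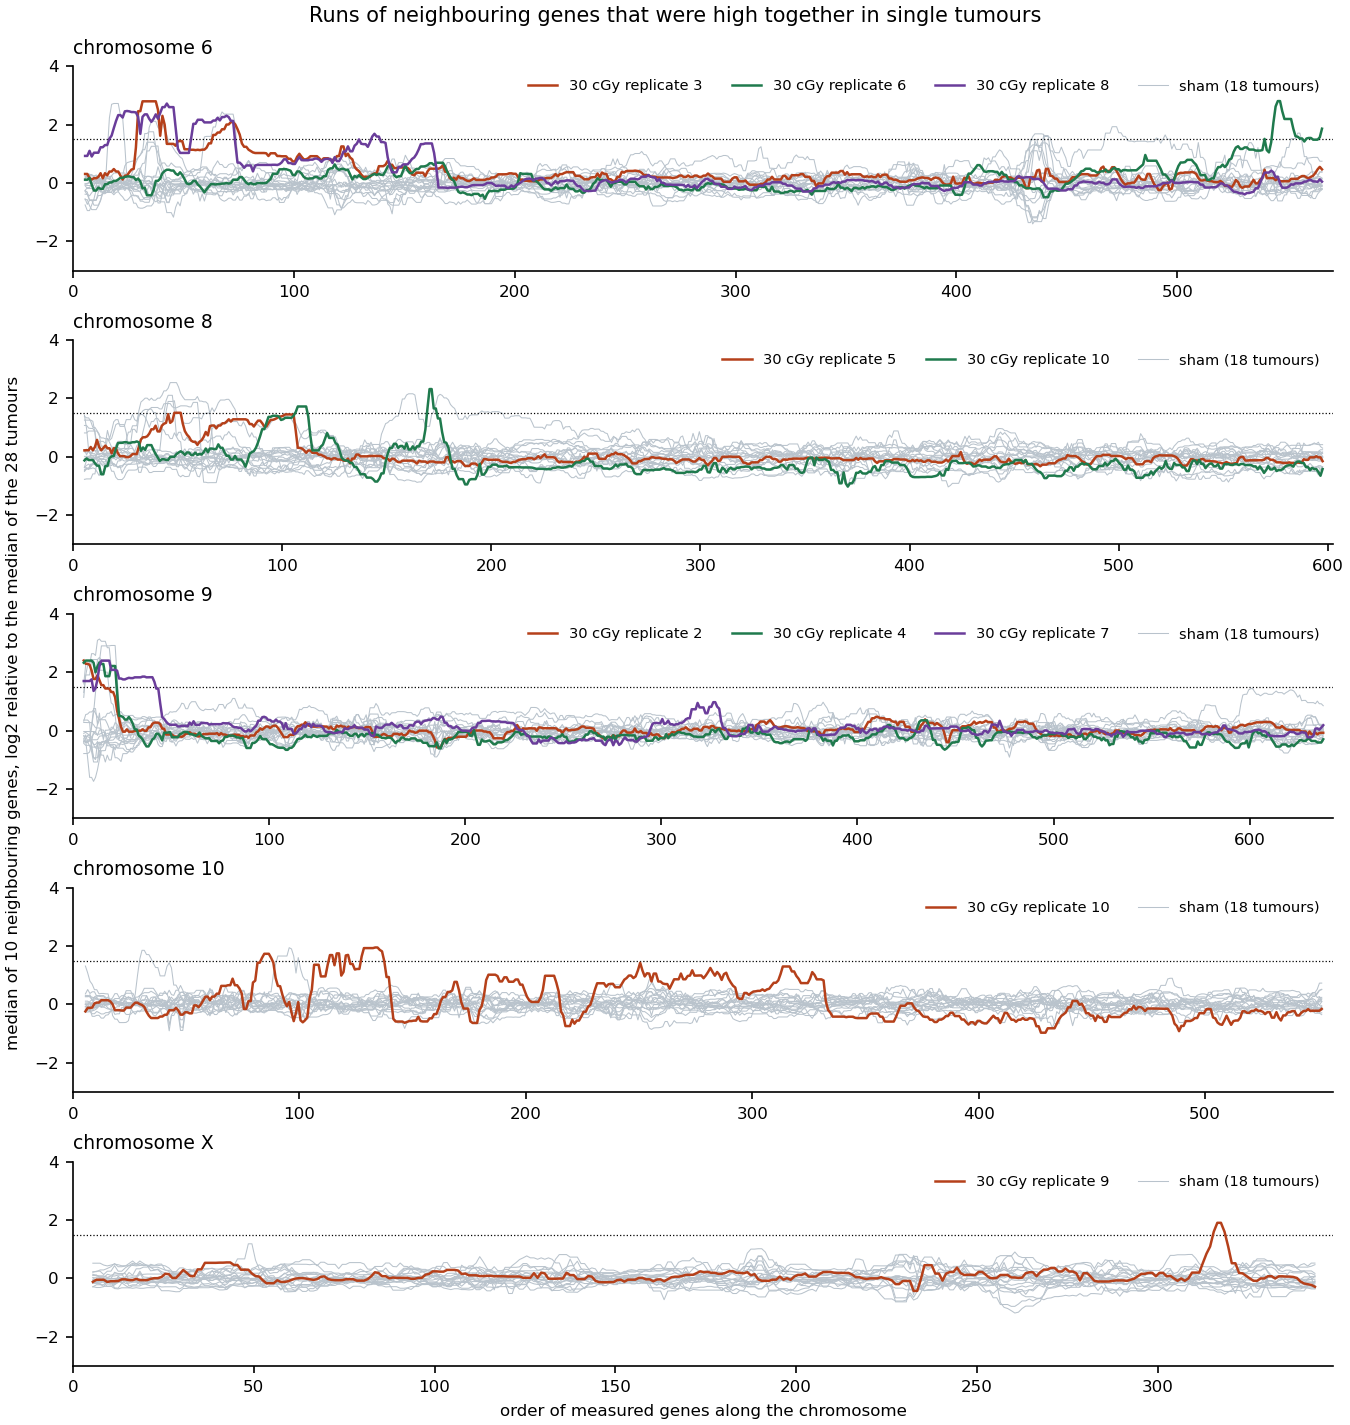
Median of 10 neighbouring genes in log2 relative to the median of the 28 tumours, along the order of measured genes on 5 chromosomes, for the 30 cGy tumours named in each panel (coloured) and the 18 sham tumours (grey). The dotted line marks 1.5; the runs at the left of chromosome 6 and of chromosome 9 lie above it in 30 cGy tumours and in grey sham lines alike.

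Ido1 and Tph1, of tryptophan use, were too dim to pass the filter on low values, with 7 and 9 tumours above the table's median where 10 were needed. Ido1, which breaks tryptophan down along the kynurenine path and is known for restraining T cells, ran over 4.23, 5.87 and 9.47 in 30 cGy tumours, against 3.57, 4.19 and 7.18 in sham tumours. In the fit without a filter, over 18820 genes, its difference was 1.72 ± 0.48 (limma adjusted p = 1.00), with 2 of 10 tumours of 30 cGy hosts above every sham tumour and 8 above the sham mean. Tph1, the entry enzyme of serotonin synthesis, ran over 4.38, 5.80 and 9.08 in 30 cGy tumours, against 3.87, 4.62 and 6.95 in sham tumours (1.44 ± 0.48). The genes most like Ido1 over the 28 tumours were Upk2 (r = 0.86), Pcp4 (0.81), Pgr (0.79), Slc5a5 (0.76), the iodide transporter gene, and Tlcd4 (0.75).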

How the data were processed

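The authors deposited log2 expression values after RMA, made with the oligo package, per the submitters' processing notes; no source used here names their versions. The table held 35556 probe sets, of which 21218 carried 1 gene symbol, 1881 several and 12457 none in the platform annotation. Probe sets with 1 symbol were used, and for each of 18820 genes the one with the highest mean was kept. Genes above the table's median, 5.67 log2, in at least 10 of 28 tumours were tested, which left 11472. Array medians ran from 5.48 to 5.78, and a dim gene has little room below it. The design was 2 group means in limma 3.58.1 (R 4.3.3) with eBayes and Benjamini-Hochberg adjustment over all genes tested, checked on simulated data. Every adjusted p in the text is from that fit, unless another fit is named. Principal components were compared by permutation of 100000 draws in Python 3.11.15. Gene lists were described by counts of sign and medians.

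The members and lists were chosen with earlier results of these data known. Genes were named by a rule: the 10 of smallest p each way, those at an unadjusted p under 0.05 or else the 2 of smallest p in each list, the 5 each way with the most tumours beyond the sham range, the 4 furthest above it per tumour, a panel, and the 5 most like Csn2 and Ido1. Other members of the lists and the genes of chromosome runs were chosen after their values were seen. Alternatives covered the filter, probe sets, normalization, variance model, array weights, blocks, sham codes, array sets and single tumours left out. Those for the runs, for the small nucleolar RNA genes and for gene lists by sham code and array set were chosen after seeing the data. Promoter sequences are RefSeq's on GRCm38.p6.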

Additional observations from a re-analysis of the deposited data

Results flagged for a closer look

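Each value below is the highest or lowest of the 10 tumours of 30 cGy hosts and stood apart from the other 9 by Dixon's test. Of 147 sets of values tested, 106 genes and 41 lists, 38 had such a tumour, while chance alone marks about 1 in 20. Of these, 25 were among the 40 genes chosen because 1 tumour lay furthest above the sham range, so that their standing apart follows from the choice. The rest were 5 of the other 66 genes, not far from 1 in 20, and 8 of the 41 lists. All of the rest belonged to replicate 1 or replicate 4, so they are not separate observations.

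Replicate 4 was lowest in Elf5 (4.86), Epcam (6.16) and Cdh1 (6.54) and highest in Hdc (7.94). Its luminal score was -2.02, its junction score -2.29 and its inflammatory score 1.02. Replicate 1 was highest in Id1 (7.83) and had a skeletal muscle score of 5.62, an adipocyte score of 4.12, an endothelial score of 0.98 and an oxidative phosphorylation score of 0.69, beside a cell cycle score of -1.20.

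Among the genes chosen for their height, replicate 1 stood apart in BC023105 (9.87) and Pnpla3 (9.80), and replicate 2 in Gucy1a2 (9.70) and Plxdc1 (10.06). Replicate 3 stood apart in Pot1a (11.90) and Cttnbp2 (10.98). Replicate 4 did so in Tsr2 (10.16), Apex2 (10.26) and Gnl3l (10.82), 3 genes of the X chromosome. Replicate 6 did so in Sspn (10.81), Rassf8 (12.195), C2cd5 (11.28) and Amn1 (10.27), and replicate 7 in Muc4 (10.48) and Cyp2f2 (12.19). Replicate 8 had Impdh1 at 11.04, Rbm28 at 10.62 and Cadps2 at 10.56. Replicate 9 had Bclaf3 at 10.62, Eif1ax at 12.00 and Rps6ka3 at 12.20. Replicate 10 had Cep57l1 at 10.995, Zbtb24 at 10.96, Smpd2 at 12.14 and Mical1 at 11.385.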

How the results depend on the processing

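In 0 genes was the adjusted p under 0.05 with any alternative tried, and the lowest adjusted p lay between 0.239 (array set B) and 1. The count at an unadjusted p under 0.05, 509, was 779 without a filter, 1168 with array weights, 873 with the replicate block, which rests on the 10 sham tumours that share a number with a 30 cGy tumour, all of code 5, 338 with the code stem as a random block, 983 against sham tumours of code 5, 329 in array set A and 1009 in set B, and 371 to 668 with 1 tumour left out. Same-numbered tumours correlated between -0.377 and 0.112, 1 of 10 pairs was above 0.1 and 0 correlated best with their own number, so they share only a number. For 66 genes with a difference in the text, 957 values under the other settings kept their direction, and no sign turned without 1 tumour. The 7 that turned, all in array set A, were Csn1s1 (-0.32), Elf5 (-0.29), Krt19 (-0.18), Krt8 (-0.29), Epcam (-0.68), Cdh1 (-0.62) and Cited4 (-0.33). Other filters, the other variance model and the fit of all 45 tumours leave a difference of group means unchanged, so these could not turn a sign. The genes were also chosen on these same tumours. The median of 41 lists took the other sign in 18 lists in array set A, 2 in set B, 8 against sham code 5, 13 against sham code 6, 10 without the tumours high in muscle or fat genes, 5 with the array set as a block, 3 without a filter and 2 with centred arrays. Among lists of at least 10 genes with at least 75% of them on one side, medians turned in set A for luminal (-0.40), hormone receptor (-0.019), junction (-0.47) and oxidative phosphorylation genes (-0.021). They turned against sham code 5 for Notch (0.095), endothelial (0.052) and skeletal muscle genes (0.20), and without the tumours high in muscle or fat genes for type I interferon (0.017) and skeletal muscle genes (0.019). With a margin of 1 log2 the median tumour had 21 genes above the sham range in place of 2. Runs in 30 cGy tumours numbered 14, and 23 with windows of 8 genes, 28 at a limit of 1.2 and 8 at a limit of 2. The cause of these shifts was not tested, and the number of arrays limits precision.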
